A study of Drosophila melanogaster with 2 samples.

Results

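The Dpp pathway genes described here are 10 of the 13986 protein-coding genes of *Drosophila melanogaster*. They are the ligand gene dpp, the receptor genes wit, put and tkv, the transducer gene Mad, the inhibitor gene Dad, the extracellular modulator genes cv-2 and sog, and the genes of the nuclear factors brk and shn. The list was chosen by peaks already seen in these data, chiefly the number of peaks at shn, so the presence of peaks at these genes is a description and no test was made of it. A peak was placed at a gene when its summit lay in the gene body or when the gene held the nearest protein-coding transcription start site.

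The measurements come from chromatin immunoprecipitation and sequencing (ChIP-seq) of Bowl, an odd-skipped family protein that binds DNA through zinc fingers, in whole embryos aged 0 to 24 h. The single group, Bowl-eGFP embryo, has 2 biological replicates of the strain bowl-GFP, whose flies carry bowl fused to eGFP. Per the labels the precipitation used an antibody against GFP, although another field of the same labels names the antibody only as bowl, and sex was not collected. Whether an untagged bowl gene was also present, and which promoter drove the fusion, is not given in the sources used here. All cells and ages were pooled, so few cells with strong binding and many cells with weak binding cannot be told apart, and no other genotype or stage was analysed here.

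Decapentaplegic (Dpp) is a bone morphogenetic protein (BMP) that patterns the dorsal side of the fly embryo and later its gut, tracheae and imaginal discs. It binds a complex of type I and type II serine/threonine kinase receptors, which phosphorylate Mad, and phosphorylated Mad enters the nucleus with its partner Medea. There the complex activates targets directly, or joins the zinc-finger protein Schnurri (Shn) at silencer elements and represses brinker (brk), whose product otherwise represses Dpp targets.

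The deposited data are lists of peaks and of the candidate regions from which the peaks were taken. Each region has a signal, a score given by the authors' peak caller with no stated scale, and a −log10 irreproducible discovery rate (IDR), which measures how well ranks repeat. Listed peaks have a −log10 IDR of at least 2, an IDR of 0.01. The pooled list holds 2198 peaks, the conservative list 1557, the list of replicate 1 1662 and the list of replicate 2 772. No list gives read counts, so the sequencing depth behind a signal is unknown.

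Bowl-eGFP peaks lay at 8 of the 10 Dpp pathway genes in the pooled list, and the 2 without were tkv and brk. Among all protein-coding genes 13.0% had a pooled peak, and among the genes between 3194 and 58309 bp, the shortest and longest of the 10, 22.1% did. In the conservative list 7 of the 10 had a peak, against 9.89% of all genes. The list of replicate 1 had peaks at 9 of the 10 (10.3% of all genes) and that of replicate 2 at 5 (5.38%). Every one of the 10 genes thus had a peak in at least 1 of the 4 lists, tkv and brk only in that of replicate 1. The share of all genes with a peak in any of the lists is not given here.

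The 26 pooled peaks were spread unevenly, with 9 at shn, 5 at Dad, 3 each at cv-2 and sog, 2 each at dpp and wit, and 1 each at Mad and put. They came from 393 candidate regions at these genes, 6.62% of which were listed, against 1.66% of all 132019 candidates. All 26 summits lay inside the body of their gene. For 3 of them, 2 at cv-2 and 1 at Dad, the nearest start site belonged to another gene.

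**Figure D1:**
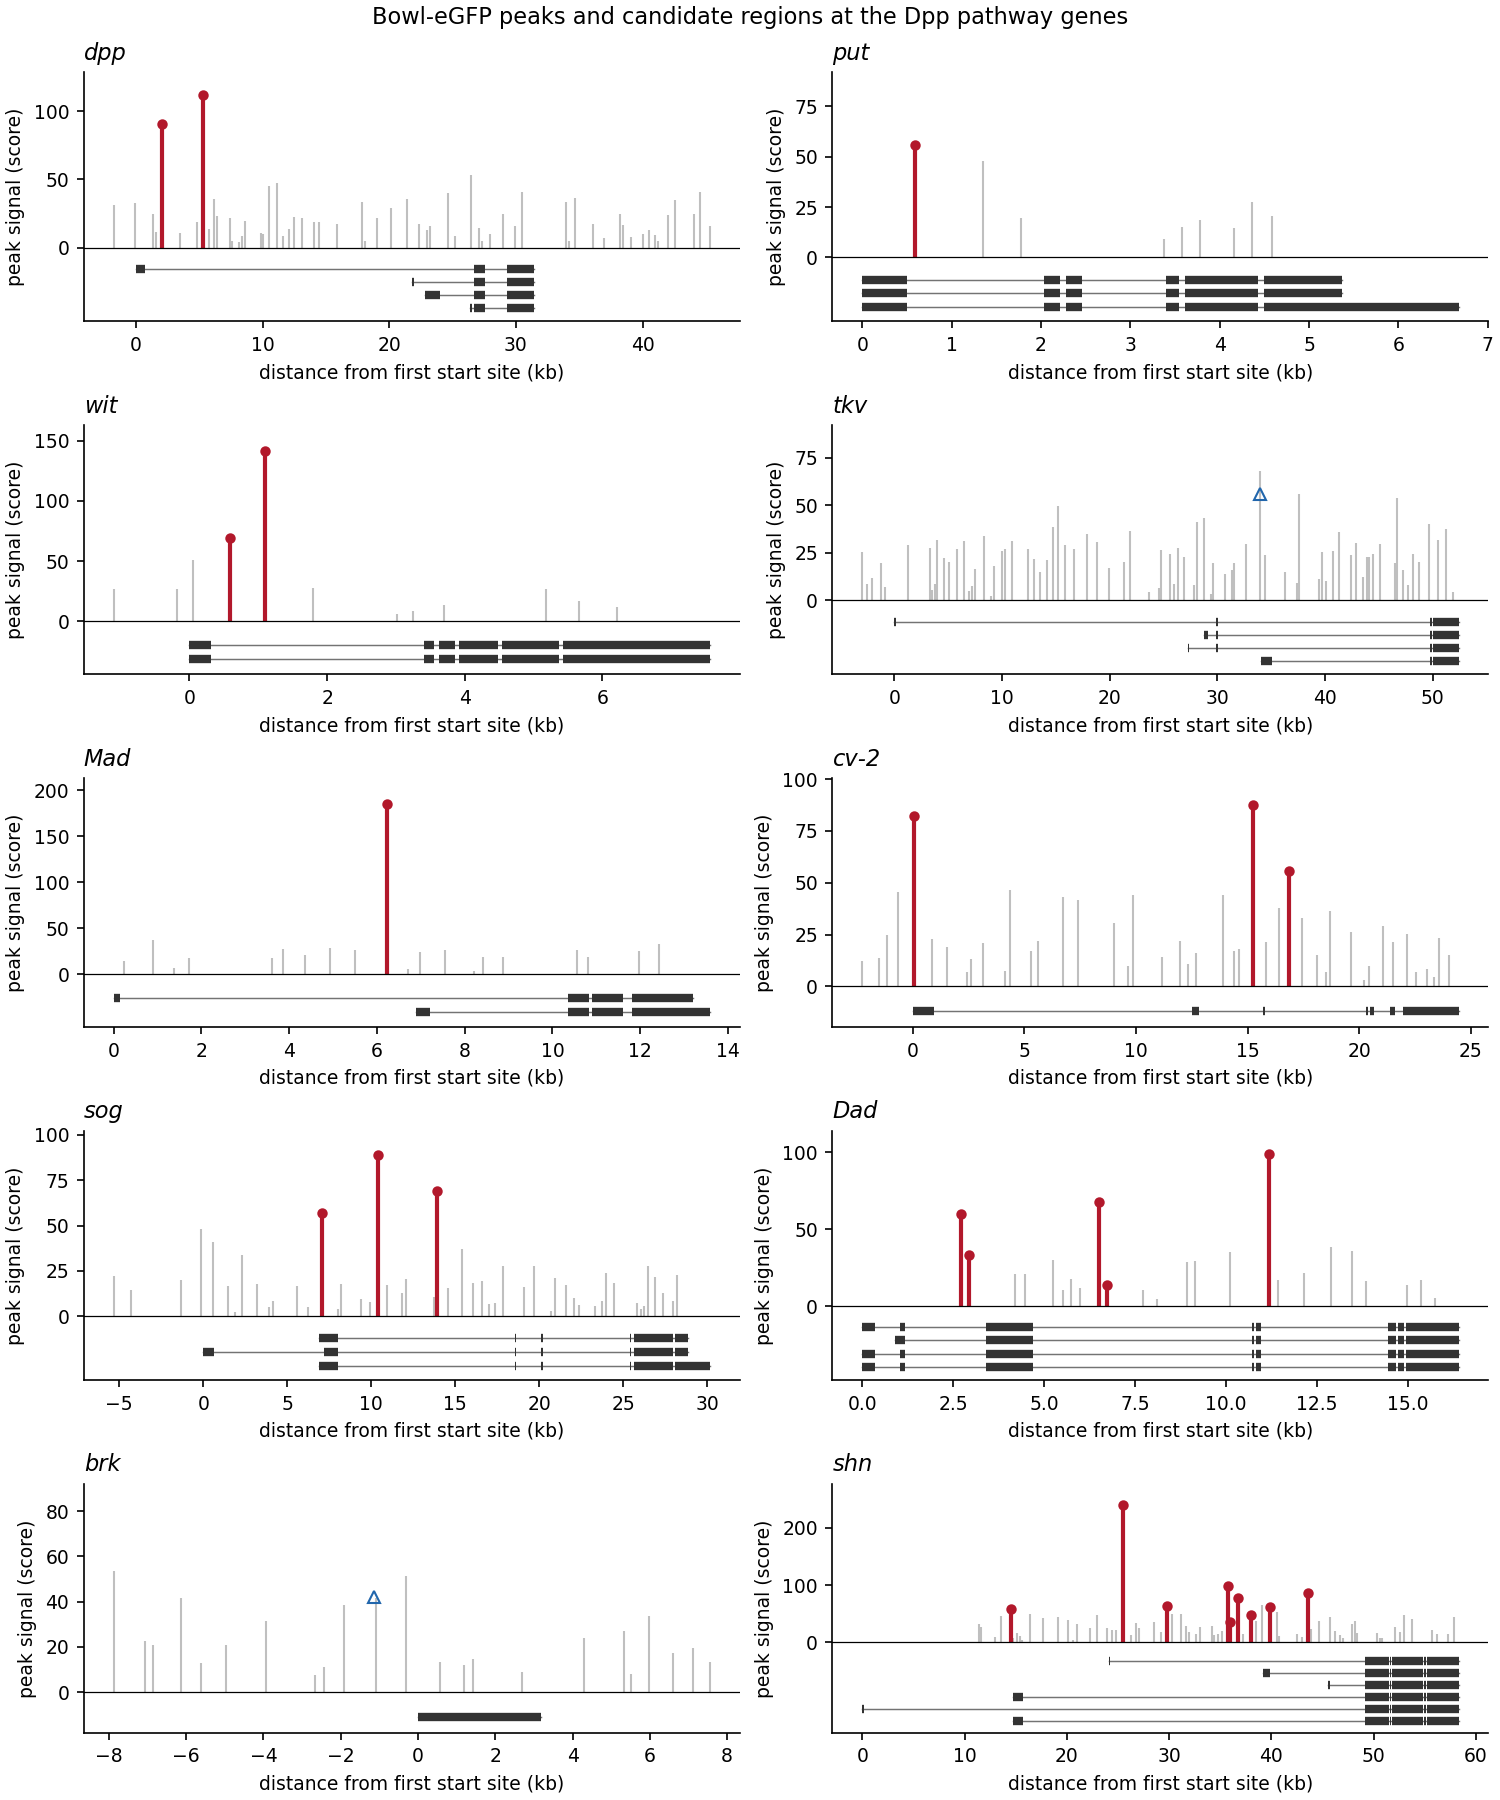
Pooled peaks (red, with a dot), candidate regions that were not listed (grey) and the peaks of replicate 1 at tkv and brk (blue triangles), by distance from the first start site of each gene in kb and by signal (a score without a scale), with the protein-coding transcripts below each axis (exons as boxes). The 9 shn peaks lie between 14.5 and 43.6 kb, in a gene whose first 11.4 kb has no pooled candidate, while tkv and brk have candidates and a single peak of replicate 1 each.

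At dpp, both pooled peaks fell in intron 1 of the long transcript dpp-RA, and the other 3 transcripts start downstream of them. The stronger peak (chr2L:2433490-2433799) had a pooled signal of 111.8, rank 650 of 2198, and lay 5273 bp downstream of the dpp-RA start. Its signal was 64.0 in replicate 1 and 48.5 in replicate 2, and it was listed in both replicates. The weaker peak (chr2L:2430299-2430608, 2082 bp downstream) had a pooled signal of 90.5, with 57.9 in replicate 1 and 33.8 in replicate 2. It was in the conservative list but in neither replicate list. The 101 bases around each summit are shown from the dm6 assembly, plus strand, because the first is a peak repeated in both replicates and the second holds the only odd-skipped word of the 26 peaks. Capitals mark the summit base in the first and the word in the second, which reads CAGTAGC on the minus strand and begins 8 bp from the summit.
dpp peak 1, chr2L:2433595-2433695: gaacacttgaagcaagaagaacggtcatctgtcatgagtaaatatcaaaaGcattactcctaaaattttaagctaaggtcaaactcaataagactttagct
dpp peak 2, chr2L:2430404-2430504: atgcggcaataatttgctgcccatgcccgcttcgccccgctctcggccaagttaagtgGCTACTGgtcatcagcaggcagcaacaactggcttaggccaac

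Candidates around the promoters of the 3 shorter dpp transcripts were weaker. The strongest that was not listed (chr2L:2454695-2455004) lay 113 bp downstream of a dpp start, with a pooled signal of 53.3 and a −log10 IDR of 0.97. Replicate 1 gave it 35.1 and replicate 2 gave it 13.4. The gene had 61 candidates in all, and none passed the IDR threshold without being listed.

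The receptor gene wit carried the strongest peak of the 3 receptor genes, put a weak one, and tkv none in the pooled list. The gene wit encodes a type II BMP receptor best known from the larval neuromuscular junction. Both of its peaks fell in intron 1 of both transcripts. The stronger (chr3L:4070458-4070767) had a pooled signal of 141.7, rank 411, and lay 1104 bp downstream of the shared start. Replicate 1 gave it 72.6 and replicate 2 gave it 71.1, the closest to equal of the 4 peaks listed in both replicates. The weaker (chr3L:4070978-4071287, 584 bp downstream) had a pooled signal of 69.4, with 51.4 in replicate 1 and 20.3 in replicate 2, and only replicate 1 listed it. The bases around the stronger summit are shown as the second peak repeated in both replicates, on the plus strand, with the summit base in capitals.
wit peak 1, chr3L:4070563-4070663: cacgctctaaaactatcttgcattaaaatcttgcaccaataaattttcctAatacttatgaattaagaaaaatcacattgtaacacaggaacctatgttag

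The gene put encodes the type II receptor punt, which serves both Dpp and activin ligands. Its only peak (chr3R:14624953-14625262) lay in intron 1 of all 3 transcripts, 595 bp downstream of their start. The pooled signal was 55.9, rank 2034 of 2198, with 25.7 in replicate 1 and 28.5 in replicate 2. The peak was in neither replicate list and not in the conservative list, so its call rests on the pooled list alone. Its 151 central bases hold GGCGCC, a word in which the preferences of Mad and Brk overlap, shown in capitals 47 bp from the summit (plus strand).
put peak 1, chr3R:14625033-14625183: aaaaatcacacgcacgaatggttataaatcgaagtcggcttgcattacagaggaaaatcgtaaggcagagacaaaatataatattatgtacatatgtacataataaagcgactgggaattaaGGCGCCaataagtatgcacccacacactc

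The gene tkv encodes the type I receptor thickveins. It spans 52385 bp and had 79 pooled candidates, the most of the 10 genes, and no pooled peak. Replicate 1 alone listed a promoter peak (chr2L:5237301-5237604), 91 bp upstream of a tkv start, with a signal of 56.0. In replicate 2 the strongest candidate there had a signal of 10.5, rank 61254 of 106305. The overlapping pooled candidate reached 67.9, above the weakest listed peaks of the pathway, but its −log10 IDR was 0.16. The summit bases are shown for their run of GAGAGAG, the word of the GAGA factor, which matches 3 times in overlap (capitals, plus strand).
tkv peak of replicate 1, chr2L:5237403-5237503: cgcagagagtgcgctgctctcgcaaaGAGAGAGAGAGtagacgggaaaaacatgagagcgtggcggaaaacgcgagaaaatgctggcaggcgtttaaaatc

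Mad, the Smad that carries the Dpp signal, had 1 peak, the second strongest of the 26. In the pooled list it covered 117 bp (chr2L:3153364-3153480), with a pooled signal of 185.7, rank 240. Its entries in the lists of replicates 1 and 2 covered 304 and 264 bp. Replicate 1 gave it 105.8 and replicate 2 gave it 79.2, and both listed it. The summit lay in intron 1 of the longer transcript and 654 bp upstream of the start of the shorter one, Mad-RB. The strongest of its other 19 candidates had a pooled signal of 37.6, so the peak stood alone in the gene. Of the 101 bases around its summit, 25.7% were G or C. The share was 33.7% at dpp peak 1 and 29.7% at wit peak 1, and the median over all pooled peaks was 36.6%. The bases of Mad peak 1 are shown with the summit in capitals (plus strand).
Mad peak 1, chr2L:3153357-3153457: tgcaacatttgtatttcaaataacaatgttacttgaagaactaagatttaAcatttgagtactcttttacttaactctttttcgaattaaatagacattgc

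Dad, the inhibitory Smad that Dpp signalling induces and that dampens it in turn, had 5 peaks, all in introns of all 4 transcripts. The strongest (chr3R:17065044-17065353) had a pooled signal of 98.9, with 71.9 in replicate 1 and 39.6 in replicate 2, and was listed by replicate 1 and the conservative list. It lay 10302 bp downstream of the nearest Dad start, and the neighbouring gene Ns1 had the nearer start, 7476 bp away. The other 4 formed 2 overlapping pairs. At chr3R:17060371-17060680 and chr3R:17060570-17060879, which share 111 bp, the pooled signals were 67.9 and 13.7, and both overlapped the same strongest candidates, of 25.6 in replicate 1 and 40.7 in replicate 2. At chr3R:17056557-17056866 and chr3R:17056780-17057089, which share 87 bp, they were 60.0 and 33.2.

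This second Dad pair overlapped the same replicate 1 candidate, of 53.9, which was listed, and replicate 2 candidates of 11.6 and 12.2, which were not. Only the first pair thus had the same strongest candidate in both replicates. Replicate 2 had the higher signal at the first pair and replicate 1 at the second. The summit region of the 60.0 peak is shown for its GGCGCC, in capitals, 69 bp from the summit (plus strand). This word occurred 15 times within Dad and 5 kb on either side, 5.68 per 10 kb, against 1.63 per 10 kb in the genome. That was the highest density of the 10 genes, and the others ran from 1.44 per 10 kb at tkv to 3.19 at cv-2.
Dad peak 3, chr3R:17056637-17056787: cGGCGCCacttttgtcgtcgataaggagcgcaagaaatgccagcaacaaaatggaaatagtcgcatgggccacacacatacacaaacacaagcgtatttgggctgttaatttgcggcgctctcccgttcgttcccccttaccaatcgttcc

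The extracellular modulator gene cv-2 encodes crossveinless 2, a BMP-binding protein that acts at the cell surface and can promote or restrain signalling. It had 3 peaks on 2R, and no peak in the list of replicate 2. The strongest (chr2R:21364056-21364365), in intron 2 and 15253 bp into the gene, had a pooled signal of 87.4, with 46.7 in replicate 1 and 43.1 in replicate 2. The weakest (chr2R:21362449-21362758), in intron 3, had 55.6, with 28.4 and 29.5 in replicates 1 and 2. The promoter peak (chr2R:21379269-21379578), 40 bp downstream of the start in the 5' UTR, had 82.4, with 70.5 in replicate 1 and 10.6 in replicate 2, rank 60751 there. The 2 intronic peaks thus had near-equal replicate signals, while the promoter peak had the widest replicate gap of the 26, a log2 ratio of 2.74.

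Short gastrulation, encoded by sog, is the fly counterpart of chordin, which binds Dpp and shapes its gradient across the embryo. The gene had 3 peaks, and no peak was listed in both replicates. The strongest (chrX:15622892-15623201), in an intron of all 3 transcripts and 3493 bp downstream of the start of sog-RA and sog-RE, had a pooled signal of 88.9. Its signals of 45.1 in replicate 1 and 47.1 in replicate 2 were nearly equal, yet only replicate 2 listed it. The next (chrX:15619361-15619670, 7024 bp downstream) had 69.0, with 45.3 in replicate 1, which listed it, and 23.2 in replicate 2.

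The third sog peak (chrX:15626239-15626548) lay in the promoter of sog-RA and sog-RE, 146 bp downstream of their start, with a pooled signal of 57.1. Replicate 1 gave it 37.1 and replicate 2 gave it 23.9, and neither listed it. With a −log10 IDR of 2.003 it was the listed peak of the 10 genes closest to the threshold. Just outside the threshold stood a shn candidate, with a −log10 IDR of 1.91 and a signal of 38.5. At the other sog promoter, a candidate 137 bp upstream of the start had a signal of 48.2 and a −log10 IDR of 1.69.

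The gene brk, the shortest of the 10 with 3194 bp and a single exon, encodes the Brinker repressor of Dpp targets. It had 23 pooled candidates and no pooled peak. Replicate 1 listed a peak (chrX:7306653-7306956) 1134 bp upstream of the start, inside an intron of the overlapping gene CG1677, with a signal of 42.1. The best replicate 2 candidate there had 23.9, and the pooled candidate 41.6 with a −log10 IDR of 1.12. The candidate nearest the brk start (chrX:7307479-7307788, 305 bp upstream) was stronger in the pooled data, with 51.4 and a −log10 IDR of 1.62, and had 31.7 in replicate 1 and 14.6 in replicate 2. That candidate is shown because it holds a match to GNCGNC, any 5 bases, then GTCTG, a looser form of the silencer element that Mad, Medea and Shn bind. The known element has a purine at its second base, where this match has none. The match is in capitals and begins 283 bp upstream of the brk start (plus strand).
brk promoter candidate, chrX:7307584-7307684: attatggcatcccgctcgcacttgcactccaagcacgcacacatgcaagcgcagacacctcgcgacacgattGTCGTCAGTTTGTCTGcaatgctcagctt

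The looser spaced word was sought on both strands over each gene and 5 kb on either side. It occurred 3 times at brk, 2.27 per 10 kb, against 804 times in the genome, 0.0601 per 10 kb. The brk copy 283 bp upstream and the only copy at dpp, 4244 bp upstream of the first dpp start on the minus strand, are identical in all 16 bases. The dpp copy lay 6326 bp from the nearest pooled summit and in no pooled candidate.
brk copy, chrX:7307656-7307671: GTCGTCagtttGTCTG
dpp copy, chr2L:2424128-2424143: GTCGTCagtttGTCTG

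Further copies stood at cv-2 (3), tkv (2), shn (2) and sog (1), and put, wit, Mad and Dad had none. No pooled peak of the 10 genes held the word within 100 bp of its summit, and of all 2198 pooled peaks 1 did, 0.0455%. Among windows of the same length around 19276 protein-coding start sites, 0.0986% held it. With a purine required at the second base, a form added after seeing the data, brk, tkv, sog and shn had 1 copy each, cv-2 had 2, and dpp and the other 4 genes had 0, against 372 in the genome. Neither copy printed above is of that form. No summit of the 10 genes had it within 100 bp, and 1 of all pooled summits did. A match to these letters is a description and not a measured binding site, and Mad, Medea and Shn themselves were not profiled here.

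At shn, 9 pooled peaks lay across a gene of 58309 bp with 6 transcripts and 5 start sites on 2R. Schnurri is a large zinc-finger protein that recruits repression to Mad complexes. The strongest peak (chr2R:11184492-11184633) had a pooled signal of 240.8, rank 142 of 2198, the highest of the 26. Replicate 1 gave it 154.4 and replicate 2 gave it 83.5, and both listed it. It covered 142 bp in the pooled list, 144 bp in that of replicate 1 and 264 bp in that of replicate 2. The summit lay in intron 1 of 4 transcripts, 1334 bp downstream of the start of shn-RA, and the other 2 transcripts start downstream.

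Of the remaining 8 shn peaks, 2 had signals above the median of the pooled list, 98.0 (chr2R:11194664-11194973) and 85.9 (chr2R:11202551-11202860). The first had 67.7 in replicate 1 and 32.5 in replicate 2 and was in neither replicate list, while the second had 64.1 and 25.9 in replicates 1 and 2 and was listed by replicate 1. The peak of 77.4 (chr2R:11195641-11195950) ran the other way, with 35.6 in replicate 1 and 39.2 in replicate 2. All 3 were in the conservative list. They lay upstream of the start sites of shn-RB and shn-RC, by 3457 bp and 2480 bp from shn-RB and by 1923 bp from shn-RC.

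The other 5 shn peaks were weak, with pooled signals between 36.2 and 63.5, and none was in the conservative list. The peak of 61.6 lay in the 5' UTR of shn-RB, 723 bp downstream of its start. The peak of 58.1 (chr2R:11173463-11173772) was the only shn promoter peak, 185 bp upstream of the shared start of shn-RD and shn-RF. Replicate 1 gave it 57.9 and listed it, and replicate 2 gave it 12.4, rank 47209. At the shn-RB promoter, a candidate 96 bp upstream of the start had a pooled signal of 64.7 and a −log10 IDR of 1.77 and was not listed.

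Spacing along shn was uneven. From the first shn start the summits lay between 14.5 and 43.6 kb, and 6 of the 9 fell within 7887 bp, between 35.7 and 43.6 kb. The strongest peak stood outside that cluster, 25.5 kb from the first start, with gaps of 10940 bp and 4285 bp to its neighbours. The first 11.4 kb of shn held no candidate in the pooled ranked lists or in that of replicate 1, so no pooled peak could be listed there, while replicate 2 had 5 candidates there, with signals up to 24.1. Within the cluster, the peaks of 98.0 and 36.2 overlapped each other by 100 bp and had the same strongest candidate in each replicate.

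**Figure D2:**
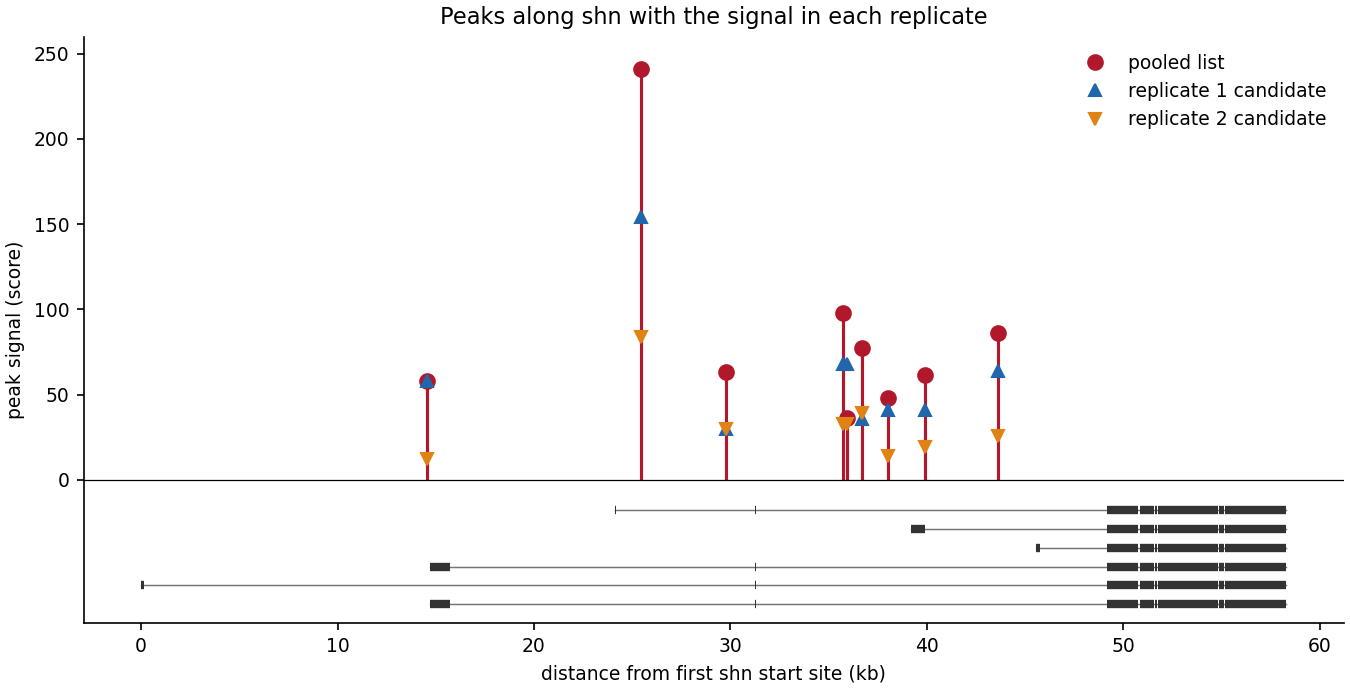
Signal (a score without a scale) of the 9 shn peaks in the pooled list (circles) and of the strongest overlapping candidate in replicate 1 (triangles pointing up) and replicate 2 (triangles pointing down), by distance from the first shn start in kb, with the 6 transcripts below. Replicate 1 exceeds replicate 2 at all peaks but those of 77.4 and 63.5, and the strongest peak lies outside the cluster of 6.

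The 3 genes nearest to shn in number of pooled peaks were ftz-f1, with 9 peaks and a summed signal of 644, tai with 8 and 836, and CG1677 with 8 and 906. The summed signal of the 9 shn peaks was 769. Only 5 of the 1824 genes with a pooled peak had 9 or more, shn included, and 1375 had 1. All 3 are long genes, of 50703, 83434 and 124709 bp. CG1677 is the gene whose intron holds the brk peak of replicate 1.

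Replicate 1 had the higher signal at 19 of the 26 peaks, against 1866 of the 2155 pooled peaks with a candidate in both replicates. The signal of the 26 ran from 25.6 to 154 in replicate 1, with a median of 52.7, and from 10.6 to 83.5 in replicate 2, with a median of 31.3. The median log2 ratio of replicate 1 to replicate 2 was 0.82 at the 26 peaks and 0.71 at all pooled peaks, so the medians were close. The quartiles lay farther apart at the 26, at -0.01 and 1.25, against 0.29 and 1.10 at all pooled peaks. A log2 ratio above 2 occurred at 4 of the 26, 15.4%, against 3.02% of all. Those 4 were the promoter peaks of cv-2 and shn and the overlapping Dad pair, which shares its replicate 1 candidate. Signals of the replicates come from separate lists of unknown depth, so the ratio is not a measure of bound chromatin.

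**Figure D3:**
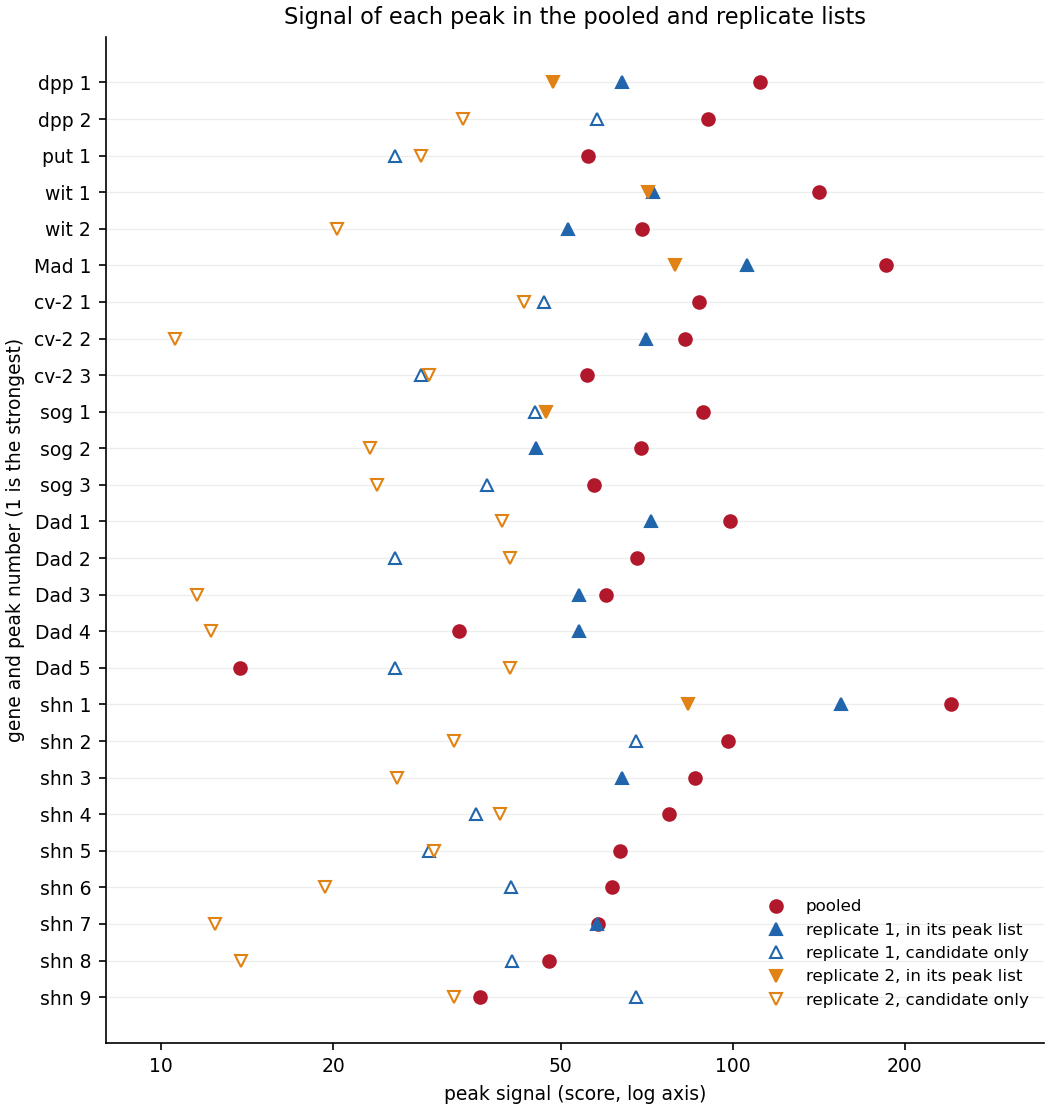
Signal (a score, log axis) of each of the 26 peaks in the pooled list (circles), replicate 1 (triangles pointing up) and replicate 2 (triangles pointing down), by gene and peak number, with filled triangles for peaks listed by that replicate and open ones for candidates. Filled triangles for both replicates appear at dpp 1, wit 1, Mad 1 and shn 1.

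Repetition between the replicate lists was uneven over the 26 peaks. Both replicates listed 4 of the 26, 15.4%, against 29.1% of all pooled peaks, and 4 of the 10 genes had such a peak, against 4.50% of all genes. Replicate 1 listed 12 of the 26 (46.2%, against 65.2% of all) and replicate 2 listed 5 (19.2%, against 34.6%). Of the 26, 11 were identical in the conservative list (42.3%, against 64.6%). Neither replicate listed 13 of the 26, and 4 of those 13 were in the conservative list. For these 2 counts the shares over all pooled peaks are not given here. These shares were not tested, since the genes were chosen with these peaks known.

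The 26 peaks were mostly of moderate signal. Their median was 69.2 and their range 13.7 to 241, where the whole list had a median of 82.6, and 10 of the 26, 38.5%, reached that median. Overlap with another pooled peak was found for 6 of the 26, 23.1%, against 7.64% of all, in 3 pairs at shn and Dad. Counted once each, the overlapping peaks left 23 peaks.

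**Figure D4:**
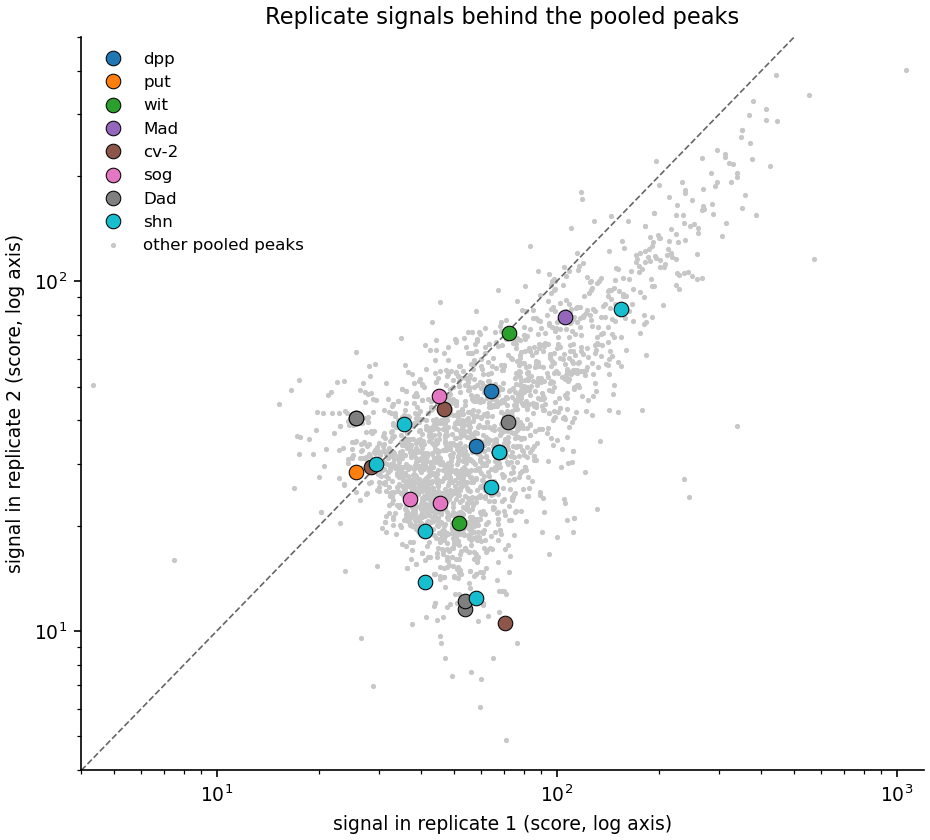
Signal in replicate 1 against signal in replicate 2 (scores, both axes logarithmic) for the pooled peaks of the pathway genes (coloured by gene) and the other pooled peaks (small grey points), with equality as a dashed line. The repeated peaks of shn, Mad, wit and dpp lie toward the upper right, and 4 peaks of cv-2, Dad and shn lie at the low edge of replicate 2.

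Introns held 22 of the 26 summits, 84.6% (95% Wilson interval 66.5 to 93.9), against 33.4% of all pooled peaks (31.5 to 35.4). Promoters, within 500 bp of a start site, held 3, 11.5% (4.0 to 29.0), against 49.0% of all (46.9 to 51.1), and the 5' UTR held 1. The intervals cover counting error over peaks only, and peaks of the same gene are not independent. The gene body was part of how peaks were placed, and the genes are long. Pooled peaks in the bodies of all genes of that length range had 54.5% of summits in introns and 39.7% in promoters. The unlisted candidates at the 10 genes had 65.1% in introns and 8.72% in promoters. Replicate 2 listed no promoter peak among its 5 at the 10 genes, and in the list of replicate 1 promoters held 23.1% of their 13 peaks. The promoter shares of the whole replicate lists are not given here, so neither value has a background.

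The median distance from the summit to the nearest protein-coding start was 2060 bp for the 26 peaks and 536.5 bp for all pooled peaks. More than 1 kb from a start lay 19 of the 26, 73.1%, against 40.8% of all. In 14 of the 26, at least 1 transcript of the gene did not have the summit in an intron, because it started downstream or had an exon there.

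**Figure D5:**
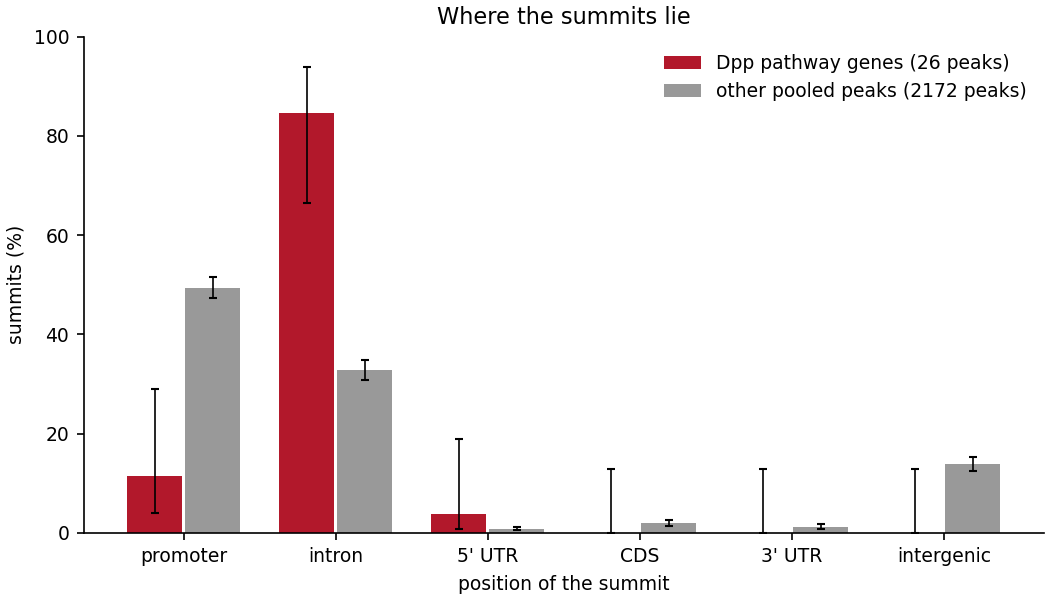
Share of summits in percent by position, for the 26 peaks of the Dpp pathway genes (red) and the other 2172 pooled peaks (grey), with 95% Wilson intervals as error bars. Introns hold 84.6% of the summits at the pathway genes and 32.8% of the others, and promoters 11.5% and 49.4%.

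Known words were rare near the 26 summits. The odd-skipped word CAGTAGC was within 100 bp of 1 summit, 3.85%, against 2.41% of all pooled peaks and 2.02% of start sites. ACAGTGG, a word taken from an earlier ranking of these same peaks, was at 0 of 26, which with a 95% Wilson interval allows up to 12.9%, against 10.3% of all pooled peaks and 14.7% of intronic ones. GAGAGAG was at 1, the shn promoter peak, against 6.41% of all pooled peaks and 4.68% of start sites. GGCGCC was at 2, the put peak and the Dad peak of 60.0, 7.69%, against 3.73% of pooled peaks and 3.01% of start sites. For each of these 4 words the 95% Wilson interval of the share among the 26 holds the share of the whole list. For ACAGTGG alone it does not hold the share of intronic peaks, 14.7%, and 22 of the 26 summits were intronic. That word was taken from these same peaks, and peaks of the same gene are not independent. No depletion of the word can therefore be read from this interval, and none was tested. The absence of a word says only that these letters are not in the window. The GC content of the 101 bases around the summit had a median of 35.1% at the 26 peaks, with a range from 22.8% to 58.4%, and 36.6% over all pooled peaks.

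Of 17 further genes of BMP signalling and its nuclear partners, 5 had a pooled peak. The share was 13.0% of all protein-coding genes and 22.1% of those between 3194 and 58309 bp. Of the 5 genes, 3 encode extracellular modulators, and 2 are the corepressor genes gro and CtBP, which are not specific to this pathway. Length was not matched, and the 17 genes ran from 523 bp (srw) to 75102 bp (nmo). The cell-surface proteoglycan genes dally and dlp, whose products shape the Dpp gradient, had 2 peaks and 1 peak. The stronger dally peak had a signal of 77.1 and lay 96 bp upstream of the dally start, and the other had 68.1. The dlp peak, of 91.5, lay in an intron of dlp, and the nearest start, 6298 bp away, was that of CG43121. The secreted modulator gene magu had a promoter peak of 178.6, 275 bp upstream, with 111.7 in replicate 1 and 66.3 in replicate 2. The corepressor genes gro and CtBP, whose products work with Brinker among many other repressors, had 1 and 2 peaks. The gro peak had a signal of 183.1 and lay 111 bp upstream of the start, and those of CtBP had 84.0, 831 bp downstream of a CtBP start, and 57.8. Only the magu and gro peaks were in both replicate lists.

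The remaining 12 of these 17 genes had none in the pooled list. They were the ligand genes gbb and scw, the type I receptor gene sax, the co-Smad gene Med, and the modulator or inhibitor genes tsg, srw, cv, tld, tok, Fs, Smurf and nmo. Ligand, receptor and transducer genes with a pooled peak were thus dpp, wit, put and Mad.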

How the data were processed

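Whole embryos of 1 group, in 2 biological replicates, were profiled by ChIP-seq. Per the labels, chromatin was sonicated to a size range of 200 to 800 (no unit given) and mapped to dm6. The authors deposited ranked candidates and thresholded peaks for each replicate and for the pooled data. The peak signal is a score as deposited, used only to describe and rank within a list, and the IDR column is a −log10 value that the authors deposited. No aligner or peak caller is named in the labels or in the notes deposited with the samples, so they are not given in the sources used, and the control was not analysed here. No read counts were used, so depth is unknown.

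Peaks and words were computed with Python 3.11.15, pandas 2.3.3, NumPy 2.4.6, SciPy 1.17.1 and Biopython 1.88, and figures drawn with Matplotlib 3.10.9. The steps were tested on simulated data. Gene models were Ensembl release 115, and sequence was the RefSeq Release 6 genome, whose chromosome lengths hold every candidate. The replicate signal is that of the strongest overlapping candidate, by at least 1 bp, in each replicate's own ranked list. Positions were ranked promoter (within 500 bp of a protein-coding start), coding sequence, 5' UTR, 3' UTR, intron, intergenic. Words were written from memory as short forms and sought within 100 bp of each summit, on either strand. GAGAGAG can match itself in overlap, and GGCGCC is its own reverse complement.

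The genes and lists were chosen with earlier results of these data known. All 10 genes were named, as were other pathway genes with a pooled peak and the 3 genes nearest to shn in peak number, with ties broken by summed signal. All 42 listed names matched the annotation. With 1 group and members chosen by their peaks, no test was made. Alternatives were gene body or nearest start alone, other lists, stricter signal, other overlaps and promoter widths, each replicate alone, overlapping peaks counted once, and a stricter silencer word.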

Additional observations from a re-analysis of the deposited data

How the results depend on the processing

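The count of pathway genes with a peak, 8, was 7 in the conservative list and with the stricter signal limit (the list median), and 8 under the other ways of placing peaks. From 1 replicate alone it was 5 to 9, the lower value from replicate 2. The number of peaks, 26, was 11 in the conservative list, 10 at or above the median signal, and 5 to 13 from 1 replicate, and lay between 18 and 26 otherwise. The count listed by both replicates, 4, stayed between 3 and 4, and could not be computed with a replicate left out. It was 3 when peaks were placed only by a nearest start within 5 kb, where dpp peak 1, 5273 bp from its start, was lost. It was also 3 under a reciprocal overlap of 50%, where Mad peak 1 was lost. That peak covered 117 bp in the pooled list, against 304 and 264 bp in the lists of replicates 1 and 2. Its summit lay inside the peaks of both replicates. The promoter share, 11.5%, was 0% in the conservative list, 0% at or above the median signal, and 0% to 23.1% from 1 replicate, and 26.9% with promoters widened to 1000 bp. The cause of these shifts was not tested. Counting overlapping peaks once, chosen after seeing the data, gave 23 peaks and a promoter share of 13.0%. No paired analysis was possible because there is 1 group. The list of replicate 2 held no promoter peak among its 5 at these genes, and 2 replicates of unknown depth limit every share given.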

Other observations

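Among 9 genes known as Dpp targets in the embryo or in imaginal discs, 3 had a pooled Bowl-eGFP peak. The share was 13.0% of all protein-coding genes and 22.1% of those between 3194 and 58309 bp, and length was not matched. The heart gene tin had a promoter peak of signal 193.5 (chr3R:21378623-21378932), 199 bp upstream of its start, with 135.2 in replicate 1 and 70.8 in replicate 2, both listed. The amnioserosa gene ush had 3 peaks, the strongest, in an intron, of 114.4 (chr2L:485715-486024), with 68.3 in replicate 1 and 44.8 in replicate 2, both listed. The wing gene bi had 1 intronic peak of 66.5, 19088 bp from a start, listed by replicate 1 alone.

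No pooled peak lay at salm, salr, vg, zen, zen2 or pnr, although replicate 1 listed a peak at salm. The activin branch, which uses the receptor babo and the Smad gene Smox in place of tkv and Mad, had none at its 6 genes babo, Smox, daw, Actbeta, myo and mav. Across all 32 further genes of the pathway lists, 8 had a pooled peak, with 12 peaks in all. This compares with 13.0% of all protein-coding genes and 22.1% of those between 3194 and 58309 bp, again without matching for length.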
